A study of Mus musculus with 46 samples.

Results

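Endothelial cells of the mouse kidney were compared 14 days after reversal of a ureteric obstruction (rUUO) with those of sham-operated mice, across all measured genes. The members are the CD31+ sorted samples of these groups, chosen by their labels: 4 rUUO samples (replicates 1, 2, 4 and 6) and 4 sham samples (replicates 1 to 4), together 8 of the 46 samples of the series. All came from kidneys of wild-type (WT) male C57BL/6 mice of 8 to 12 weeks, per the study's methods. In the rUUO group the ureter was tied (unilateral ureteric obstruction, UUO) and later reimplanted to free the urine flow, whereas sham mice had surgery without obstruction. The 3 CD31+ UUO samples used here (replicates 1, 2 and 4) were obstructed and not reversed, and the labels do not say whether they belong to day 2 or day 7 of the methods. The series also holds PDGFRB+ (stromal), F4/80+ (macrophage) and LTL+ (proximal tubular) sorts from the same surgeries, and their change from sham to rUUO was set against the endothelial change. Sham and rUUO samples numbered 4 and 4 in PDGFRB+ sorts, 4 and 3 in F4/80+ sorts and 3 and 3 in LTL+ sorts.

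The kidney endothelium lines arteries, glomerular tufts, peritubular capillaries, the vasa recta, veins and lymphatics, and each segment has its own set of transcripts. Resting endothelium holds leukocytes off, whereas activated endothelium displays selectins and adhesion molecules such as P-selectin and VCAM-1, to which leukocytes tether and then adhere. Injury of the kidney is known to thin out the peritubular capillaries, and the apelin and VEGF systems are among those that guide sprouting and regrowth of vessels.

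Endothelial markers were abundant in the sorts of both groups. Pecam1, which encodes CD31, had 409, 453, 322 and 324 FPKM in sham replicates 1 to 4 and 492, 487, 458 and 475 FPKM in rUUO replicates 1, 2, 4 and 6 (log2 change 0.36 ± 0.15, adjusted p = 0.294, limma). FPKM counts sequenced fragments relative to the length of the transcript and the size of the library. Log2 changes are differences on the log2(FPKM + 1) scale ± their standard error. That scale understates the change of low genes. Every rUUO sample was above every sham sample for Pecam1, although the difference was not past the threshold of 0.05. Kdr, the main VEGF receptor, had 328 ± 73.5 FPKM (SD, n = 4) in sham and 279.6 ± 44.2 FPKM (SD, n = 4) in rUUO (log2 change -0.21 ± 0.19, adjusted p = 0.645). Cdh5, the endothelial cadherin of cell junctions, had 306 ± 58.8 and 308 ± 18.3 FPKM (log2 change 0.03 ± 0.17, adjusted p = 0.958). Of the 26 endothelial identity genes, Cd34 rose (1.4% of all genes tested did), and the other 25 were not past the threshold. An unadjusted p under 0.05 was found for 7 of the 26. The rUUO samples lay wholly above the sham samples in 5 and wholly below in 4, against 7.88% and 1.93% of all genes. Cd34, a sialomucin of the endothelial surface, went from 217 ± 31.3 to 397 ± 65.8 FPKM (log2 change 0.87 ± 0.16, adjusted p = 0.0086).

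No depth could be given, since the table holds no counts. FPKM sums were 634754 to 766788 in sham and 646974 to 671978 in rUUO. Mitochondrial genes took 32.5 to 43.5% of the sum in sham and 27.2 to 36.5% in rUUO. Pearson's r across genes between replicates was 0.894 to 0.936 in sham and 0.906 to 0.925 in rUUO. Sham replicate 3 had the lowest mean r of the sham samples with the other CD31+ samples (0.876) and the most tubular RNA, as given below, and results that rest on it are given without it as well. The endothelial identity list had a summed FPKM of 6626 to 7986 in sham and 6459.9 to 7339 in rUUO. In sham replicate 3 it was 7057, beside 1152 for distal and 1091 for proximal tubule markers. In a bulk sort, fewer cells of a kind and less RNA per cell cannot be told apart.

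Of 13393 genes tested, 237 passed the threshold between rUUO and sham (1.77% of genes tested), 188 of them higher in rUUO (1.4%) and 49 lower (0.366%). The 2 groups did not overlap in 231 of the 237. Over all genes tested, the 4 rUUO samples lay wholly above the 4 sham samples in 7.88% and wholly below in 1.93%, and the median log2 change was 0.19, so that single changes are to be read against that shift. Among the calls, 218 were protein-coding genes, and 25 had predicted, clone-based or mitochondrial names, 17 of them higher and 8 lower. The count fell to 143 without sham replicate 3, 146 without rUUO replicate 1, 141 without rUUO replicate 2, 119 without rUUO replicate 4 and 157 without rUUO replicate 6. Quantile normalization moved the median of all genes to 0.01 and the calls to 132 higher and 84 lower.

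**Figure D1:**
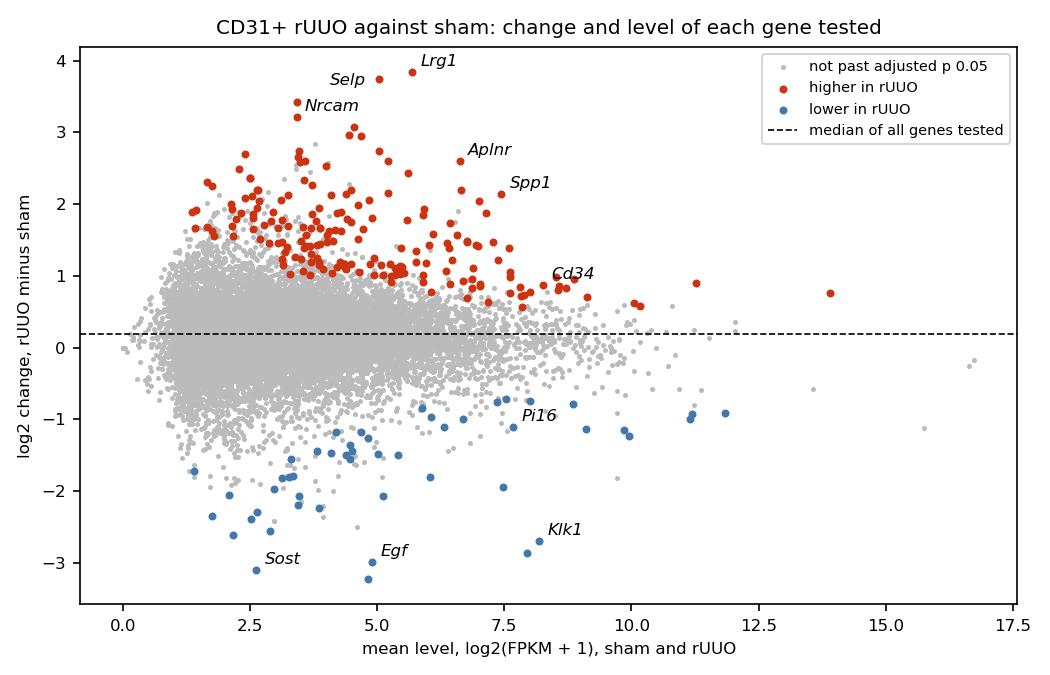
Each point is 1 of the 13393 genes tested in CD31+ sorts, with the mean level of sham and rUUO on the x axis (log2(FPKM + 1)) and the fitted log2 change on the y axis. Red points (188) are higher and blue points (49) lower in rUUO past an adjusted p of 0.05, and the dashed line is the median of all genes, 0.19.

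The largest rise among the named genes was that of Lrg1, a secreted glycoprotein known to act on endothelial TGF-beta signalling. It had 6.77, 6.84, 5.37 and 4.15 FPKM in the sham samples and 99, 88.7, 99 and 91.9 FPKM in the rUUO samples, with UUO samples at 102, 73.4 and 71.4 FPKM. The groups were far apart and each was narrow, with a fold of means of 16.4 (log2 change 3.84 ± 0.20, adjusted p = 4.42e-08). Selp, which encodes P-selectin, followed with 3.26, 7.55, 2.69 and 1.64 FPKM in sham and 60.9, 44.5, 91.6 and 43.5 FPKM in rUUO (log2 change 3.75 ± 0.34, adjusted p = 4.28e-05). All 4 rUUO samples were above 40 FPKM and no sham sample reached 8. P-selectin is also a platelet protein, and the summed platelet and red cell markers were 74.1 to 119.9 FPKM in sham and 38.7 to 83.7 in rUUO, with none of the 7 tested past limma's threshold and 5 at an unadjusted p under 0.05. That sum includes the red cell globin genes Hbb-bs and Hba-a2, given below, so it does not measure platelets alone. The part of platelet RNA in the Selp result was not tested.

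Nrcam, a cell adhesion molecule best known from neurons, had 0.95, 2.14, 0.4 and 1.03 FPKM in sham and 15.6, 18.6, 14.9 and 23.6 FPKM in rUUO (log2 change 3.21 ± 0.33, adjusted p = 6.77e-05). The rUUO samples were all at least 14 FPKM. Kcnj8, the Kir6.1 pore of ATP-sensitive potassium channels, had 4.37, 4.72, 1.81 and 10.3 FPKM in sham and 41.1, 29.5, 67.4 and 38.7 FPKM in rUUO (log2 change 2.95 ± 0.35, adjusted p = 2.61e-04). This gene is also known from pericytes. Summed pericyte, smooth muscle and fibroblast markers were 141 to 162 FPKM in sham and 207 to 259 in rUUO, without overlap. None of the 16 passed limma's test, and 4 had an unadjusted p under 0.05. The rUUO samples lay wholly above sham samples in 2 of the 16 and wholly below in 1, against 7.88% and 1.93% of all genes. The 2 were Acta2, at 37.3 ± 8.15 FPKM in sham and 73.6 ± 13 FPKM in rUUO, and Rgs5, at 43 ± 6.2 and 61.7 ± 8.98 FPKM. Pdgfrb was at 4.47 ± 1.73 and 4.95 ± 1.38 FPKM. The part of pericyte RNA in the Kcnj8 result was not tested. In PDGFRB+ sorts, Kcnj8 itself had 7.75 ± 1.78 FPKM in sham and 16.3 ± 8.53 FPKM in rUUO, beside 44.2 ± 16.3 FPKM in endothelial rUUO samples.

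The apelin pair rose together, ligand and receptor. Apln had 8.73, 12.4, 8.36 and 8.37 FPKM in sham and 55.4, 62, 55.8 and 77 FPKM in rUUO (log2 change 2.61 ± 0.25, adjusted p = 4.28e-05). Aplnr, its receptor, had 23.9, 33.5, 26.1 and 23.6 FPKM in sham and 201, 138, 195 and 139 FPKM in rUUO (log2 change 2.60 ± 0.21, adjusted p = 8.74e-06). In both genes, the lowest rUUO sample was more than 4-fold above the highest sham sample. The UUO samples had 94.4, 70.8 and 41.7 FPKM of Apln and 214, 145 and 239 FPKM of Aplnr. Aqp7, a channel for glycerol and water, had 0.22, 0.52, 5.77 and 1.1 FPKM in sham and 27.2, 7.01, 31.8 and 6.17 FPKM in rUUO (log2 change 2.74 ± 0.57, adjusted p = 0.0217). Sham replicate 3 came within 1 FPKM of the lowest rUUO sample, and the call was lost without sham replicate 1, 2 or 4 or rUUO replicate 1 or 4 (adjusted p = 0.0582 to 0.0906).

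**Figure D2:**
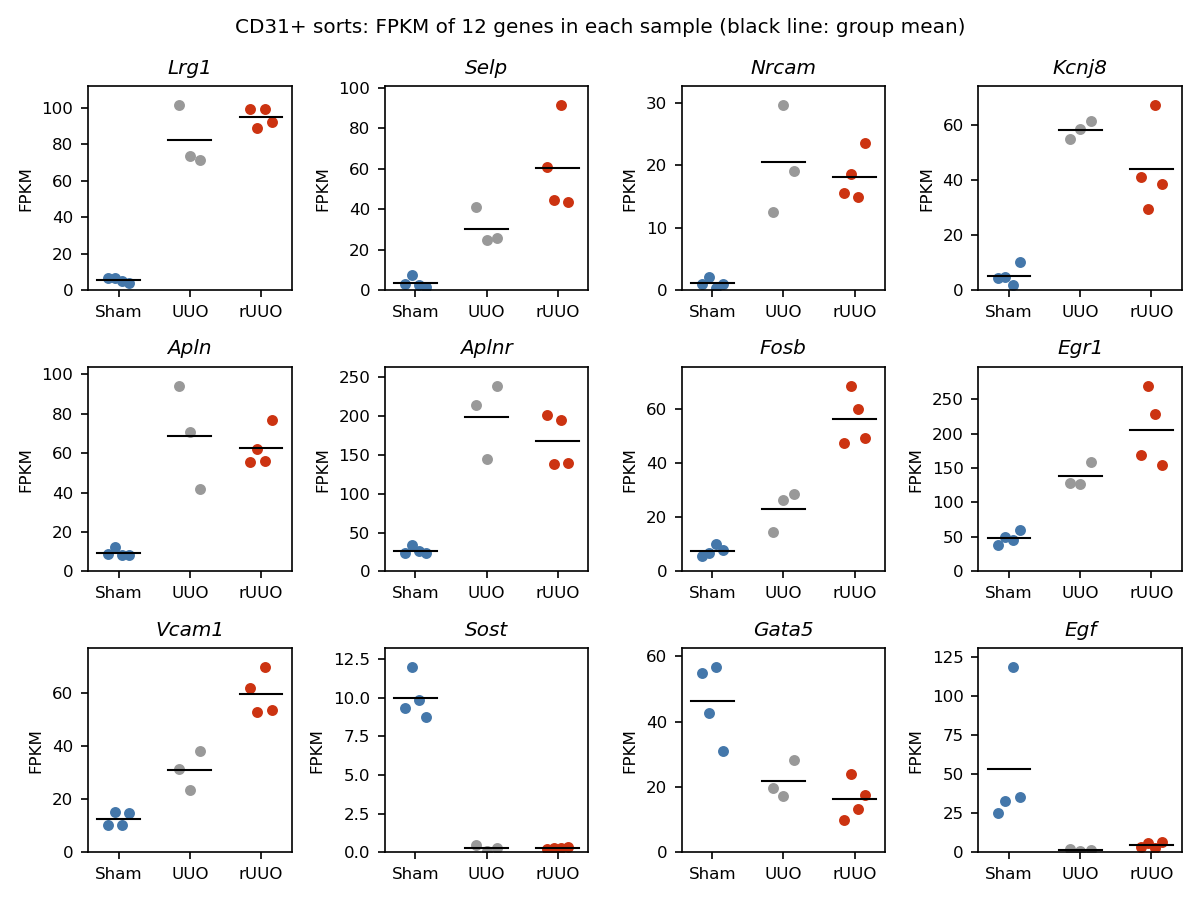
FPKM (y axes) of 12 genes in each CD31+ sample of the sham (n = 4), UUO (n = 3) and rUUO (n = 4) groups, 1 point a sample and a black line at the group mean. For Lrg1 the sham points lie at 4.15 to 6.84 FPKM and the rUUO points at 88.7 to 99.0 FPKM, and Sost has the opposite order with no sham point below 8.75 and no rUUO point above 0.33 FPKM.

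Other large rises were those of Lcn2, Fosb, Dcdc2a, Atf3, Socs3, Igfbp2, Fos and Spock2. Socs3, an inhibitor of cytokine signalling that STAT3 is known to induce, had 3.32, 2.51, 5.18 and 3.63 FPKM in sham and 32, 24.3, 29 and 18.5 FPKM in rUUO (log2 change 2.54 ± 0.26, adjusted p = 6.77e-05). Dcdc2a, a microtubule-binding protein, went from 2.1 ± 1.41 to 17.5 ± 2.76 FPKM (log2 change 2.65 ± 0.33, adjusted p = 3.66e-04). It also went from 20.3 ± 11.5 to 39.1 ± 17.3 FPKM in PDGFRB+ sorts and from 1.3 ± 0.64 to 19.3 ± 4.24 FPKM in LTL+ sorts. The endothelial change in Dcdc2a did not pass against PDGFRB+, F4/80+ or LTL+ sorts (adjusted p = 0.147, 0.338 and 0.872, limma). Igfbp2, which binds insulin-like growth factors, had 0.72, 0.41, 0.09 and 0.47 FPKM in sham, 4.72, 10.7, 4.77 and 9.07 FPKM in rUUO and 0.09, 0 and 0.81 FPKM in UUO (log2 change 2.49 ± 0.39, adjusted p = 0.0025). It was thus near 0 in sham and UUO samples alike. In PDGFRB+ sorts Igfbp2 went from 7.44 ± 4.48 FPKM in sham to 81.6 ± 15.7 FPKM in rUUO. That change did not differ past the threshold from the endothelial one (adjusted p = 0.346, limma). Spock2, a secreted proteoglycan, went from 0.845 ± 0.62 to 8.45 ± 2.99 FPKM (log2 change 2.36 ± 0.42, adjusted p = 0.0075).

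The question whether these rises were particular to endothelium was put to a test of the difference between the changes of 2 sorts, fitted over all 44 samples. That fit took the samples as independent, although sorts may share mice. The endothelial change differed from the PDGFRB+ change in 5.86% of genes tested, from the F4/80+ change in 1.94% and from the LTL+ change in 2.8%. Of the rises, Lrg1, Selp, Nrcam, Kcnj8, Aplnr, Aqp7, Kcnj2 and Spock2 passed against all 3 other sorts. Spock2 did so narrowly (adjusted p = 0.0339, 0.0497 and 0.0408). Of the falls given below, Slc26a10, Arhgef25 and Sost passed against all 3. Sost was so low in the other sorts that it had little room to fall there, so its test could not decide the question. The Lrg1 change exceeded the PDGFRB+ change by 3.65 ± 0.49 (adjusted p = 2.00e-06), the F4/80+ change by 4.43 ± 0.51 (adjusted p = 4.74e-07) and the LTL+ change by 3.58 ± 0.53 (adjusted p = 1.97e-05), and its level in those sorts stayed at or below 1.24 ± 0.918 FPKM. For Selp the difference was 4.13 ± 0.53 against PDGFRB+, 4.90 ± 0.55 against F4/80+ and 3.80 ± 0.57 against LTL+ (adjusted p = 7.48e-07, 3.94e-07 and 2.48e-05). Nrcam differed most from F4/80+ (3.34 ± 0.54, adjusted p = 2.91e-04). Kcnj2, the inward rectifier channel Kir2.1, went from 1.25 ± 0.673 to 8.37 ± 1.35 FPKM (log2 change 2.11 ± 0.35, adjusted p = 0.0043) in endothelium and differed by 3.50 ± 0.49 from F4/80+ sorts (adjusted p = 1.99e-05), where it had 14.2 ± 3.38 FPKM in sham and 5.1 ± 2.66 FPKM in rUUO. Apln passed against PDGFRB+ (2.19 ± 0.55, adjusted p = 0.01) and LTL+ (2.80 ± 0.60, adjusted p = 0.0033) and not against F4/80+ (1.56 ± 0.58, adjusted p = 0.162).

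Entpd1, the ectonucleotidase CD39, which hydrolyses extracellular ATP, went from 54.9 ± 8.28 to 159.9 ± 45 FPKM (log2 change 1.49 ± 0.23, adjusted p = 0.0029). In PDGFRB+ sorts it had 18.8 ± 5.56 FPKM in sham and 5.2 ± 3.39 FPKM in rUUO, and the changes differed by 3.26 ± 0.40 (adjusted p = 3.20e-07). The processed pseudogene Gm20689 lies inside Ift80 and also passed against PDGFRB+ sorts (5.09 ± 0.97, adjusted p = 4.75e-04) and LTL+ sorts (3.82 ± 1.05, adjusted p = 0.0339). Against F4/80+ sorts, where it had 19.6 ± 15.8 FPKM in sham and 56.3 ± 21.8 FPKM in rUUO, it did not pass (adjusted p = 0.641, limma). It had 0, 2.11, 1.4 and 0.09 FPKM in sham and 26.3, 24.2, 14.8 and 8.82 FPKM in rUUO endothelium, but reads of overlapping genes could be split between them.

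**Figure D3:**
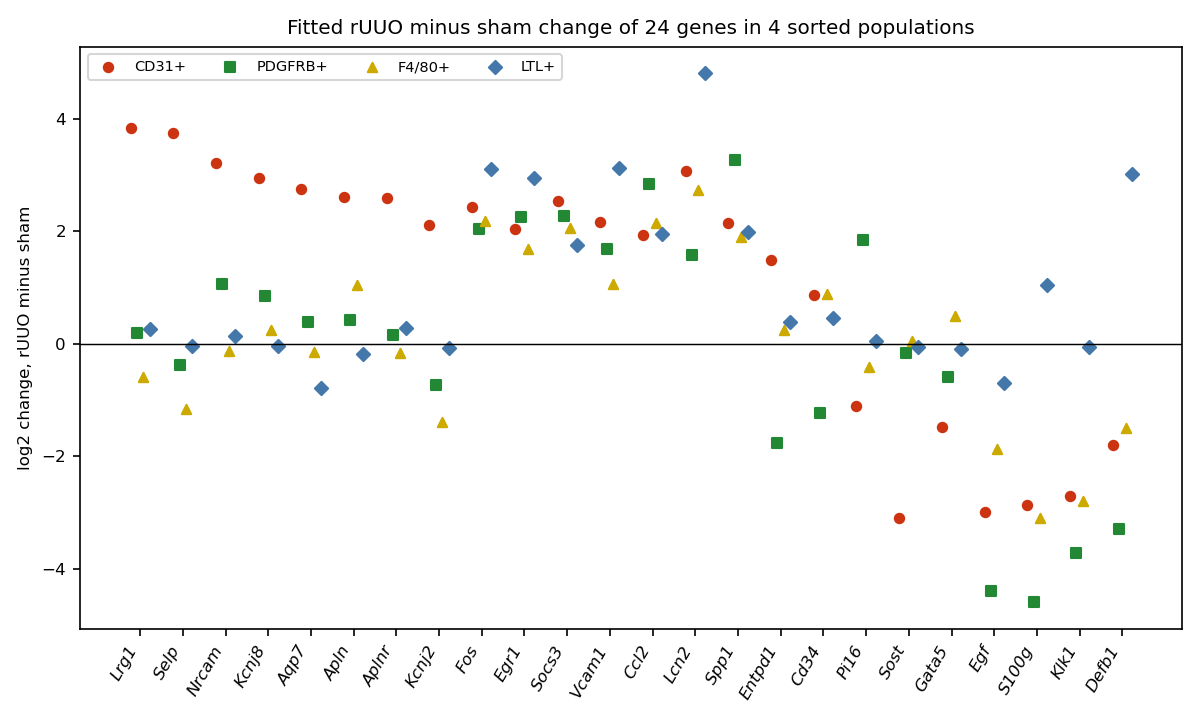
Fitted log2 change from sham to rUUO (y axis) of 24 genes in CD31+, PDGFRB+, F4/80+ and LTL+ sorts. Lrg1, Selp and Nrcam lie above 3 in CD31+ sorts and below 1.1 in the others, whereas Fos, Egr1, Socs3 and Ccl2 lie above 1.6 in all 4 sorts.

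Some genes for the capture of leukocytes rose. Of 23 tested genes of leukocyte adhesion and chemokines, 6 rose (26.1%, against 1.4% of all genes tested), none fell and 17 did not pass, with a list median of 0.62 beside 0.19 for all genes. Vcam1, the ligand of leukocyte integrin VLA-4, had 10.5, 15.3, 10.3 and 14.9 FPKM in sham and 62.2, 53, 70.2 and 53.7 FPKM in rUUO (log2 change 2.16 ± 0.22, adjusted p = 6.77e-05). UUO samples had 31.6, 23.4 and 38.3 FPKM, between the 2 groups. Jam2, a junctional adhesion molecule, went from 43.4 ± 12 to 119 ± 20.8 FPKM (log2 change 1.46 ± 0.20, adjusted p = 0.001). The chemokine genes were lower in level. Ccl2, which draws monocytes, had 0.73, 0.66, 0.19 and 1.23 FPKM in sham and 2.45, 11.5, 5.97 and 4.46 FPKM in rUUO (log2 change 1.94 ± 0.40, adjusted p = 0.0207), and Cxcl10, a chemokine for T cells, went from 7.95 ± 2.66 to 19 ± 1.57 FPKM (log2 change 1.20 ± 0.27, adjusted p = 0.0301). Ackr1, the atypical chemokine receptor of venules, was listed at 0 in 3 sham samples and had 6.79, 4.21, 2.35 and 3.84 FPKM in rUUO (log2 change 2.31 ± 0.50, adjusted p = 0.0251). Of these, the call was lost for Ccl2 without sham 3, rUUO 2 or rUUO 4 (adjusted p = 0.0623 to 0.0727), for Cxcl10 without any sample but sham 4 (adjusted p = 0.0567 to 0.0982), and for Ackr1 without any sample but sham 2 and rUUO 4 (adjusted p = 0.0587 to 0.091). Without sham replicate 3, or without rUUO replicate 2, 3 of the 23 passed. Icam2 had 156 ± 17.4 FPKM in sham and 109 ± 10.9 FPKM in rUUO (adjusted p = 0.173) and F11r 115 ± 10.5 and 127 ± 8.74 FPKM (adjusted p = 0.72).

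The adhesion genes were read in the other sorts too. Of the 23 genes of the list, 11 rose in PDGFRB+ sorts (11% of all genes did), 5 in F4/80+ sorts (2.49%) and 9 in LTL+ sorts (6.05%). In PDGFRB+ sorts 2 fell (6.3% of all genes did), in F4/80+ sorts 2 (1.69%) and in LTL+ sorts none (0.284%). Vcam1 had 22.7 ± 5.38 FPKM in PDGFRB+ sham and 73.4 ± 4.74 FPKM in PDGFRB+ rUUO, and 0.63 ± 0.322 and 13.2 ± 1.26 FPKM in LTL+ sorts. The endothelial change in Vcam1 did not pass against any of the 3 (adjusted p = 0.561, 0.15 and 0.28), and neither did that in Ccl2 (adjusted p = 0.31, 0.885 and 0.995). Among leukocyte markers in the endothelial sorts, none of 13 macrophage, 3 lymphocyte and 1 neutrophil genes tested passed limma's test, and 1 macrophage gene had an unadjusted p under 0.05. Summed macrophage markers were 99.2 to 132 FPKM in sham and 109 to 201 in rUUO.

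Segment markers of the vascular tree were looked at in 2 lists. Of 15 tested genes of capillary, venous and lymphatic endothelium, 3 rose (1.4% of all genes did) and none fell, with a median of 0.72: Selp, Vcam1 and Nrp2, a co-receptor for VEGF-C and semaphorins that went from 32.2 ± 8.99 to 73.6 ± 7.05 FPKM (log2 change 1.20 ± 0.20, adjusted p = 0.0044). In this list, 8 of 15 genes had rUUO samples wholly above sham samples, against 7.88% of all genes. The abundant members Igfbp5 (1019 ± 271 against 656 ± 105 FPKM, adjusted p = 0.166) and Igfbp3 (165 ± 23.7 against 151 ± 24.2 FPKM, adjusted p = 0.786) did not pass. Of 18 genes of glomerular and arterial endothelium, 2 fell (0.366% of all genes did), none rose and 16 did not pass, with a median of -0.40. Sost, which encodes the Wnt antagonist sclerostin, had 9.33, 12, 9.87 and 8.75 FPKM in sham and 0.22, 0.27, 0.29 and 0.33 FPKM in rUUO (log2 change -3.10 ± 0.32, adjusted p = 6.77e-05). The UUO samples were as low, at 0.48, 0.08 and 0.26 FPKM, and all other sorts were below 1 FPKM. Gata5, a transcription factor of glomerular endothelium, had 55, 42.5, 56.9 and 31.2 FPKM in sham and 9.97, 24.1, 13.3 and 17.6 FPKM in rUUO (log2 change -1.49 ± 0.28, adjusted p = 0.0107). Ehd3, a marker of glomerular endothelium, had 455 ± 146 FPKM in sham and 332 ± 71 FPKM in rUUO (adjusted p = 0.52), and Tbx3 had 184 ± 90.8 and 133 ± 39.7 FPKM (adjusted p = 0.57). The 7 podocyte markers, none past limma's threshold and 3 at an unadjusted p under 0.05, summed to 113 to 161 FPKM in sham and 165 to 193 in rUUO.

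Further falls were those of Cnmd, Pi16, Slc26a10, Arhgef25 and Agtr1a. Cnmd, or chondromodulin, known for restraint of vessel growth, had 9.97, 19.6, 3.95 and 4.59 FPKM in sham and 0.9, 0.57, 1.38 and 0.53 FPKM in rUUO (log2 change -2.29 ± 0.47, adjusted p = 0.0185), a call lost without sham 1, rUUO 2 or rUUO 6 (adjusted p = 0.0532 to 0.0636). Pi16, a secreted peptidase inhibitor family member, had 301, 274, 324 and 210.2 FPKM in sham and 109.6, 144, 114 and 143 FPKM in rUUO (log2 change -1.11 ± 0.19, adjusted p = 0.0053). PDGFRB+ sorts had 63.5 ± 20.8 FPKM in sham and 229 ± 63.7 FPKM in rUUO (difference between the changes -2.95 ± 0.48, adjusted p = 4.46e-05). Slc26a10 and its neighbour Arhgef25, a guanine nucleotide exchange factor, both fell, and lie on the minus strand at chr10:127171393-127180645 and chr10:127182525-127190083 (GRCm38). Slc26a10 had 15.1, 17.7, 8.82 and 12.2 FPKM in sham and 6.62, 4.44, 0.82 and 2.54 FPKM in rUUO (log2 change -1.80 ± 0.39, adjusted p = 0.0271), and Arhgef25 had 10.9, 21.2, 8.29 and 10.2 FPKM in sham and 1.96, 3.57, 1.79 and 3.77 FPKM in rUUO (log2 change -1.81 ± 0.40, adjusted p = 0.027). The calls were lost without sham 1, 2 or 4 or rUUO 4 for both genes, without rUUO 6 for Slc26a10 and without rUUO 1 or 2 for Arhgef25 (adjusted p = 0.0686 to 0.0836 for Slc26a10 and 0.0511 to 0.0962 for Arhgef25). Agtr1a, the angiotensin II receptor type 1a, went from 11.5 ± 3.0 to 2.21 ± 0.803 FPKM (log2 change -1.96 ± 0.32, adjusted p = 0.0041). It was far more abundant in PDGFRB+ sham sorts, at 310.1 ± 34.9 FPKM, and had 28.9 ± 5.95 FPKM in PDGFRB+ rUUO sorts.

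Immediate early genes formed the list with most calls. These genes encode transcription factors and feedback regulators that are transcribed within minutes of many kinds of stimulus, and the list also holds heat shock genes. Of 21 tested, 15 rose (71.4%, against 1.4% of all genes), none fell and 6 did not pass, with a median of 1.44. Fosb had 5.58, 6.75, 10.3 and 7.81 FPKM in sham, 14.4, 26.5 and 28.6 FPKM in UUO and 47.5, 68.6, 59.9 and 49.1 FPKM in rUUO (log2 change 2.75 ± 0.26, adjusted p = 4.28e-05). Fos had 10.1, 16.2, 16 and 14.6 FPKM in sham, 27.5, 27.7 and 55.3 FPKM in UUO and 66, 86, 92.5 and 78.2 FPKM in rUUO (log2 change 2.43 ± 0.25, adjusted p = 6.77e-05). In both, UUO samples lay between the other groups. Egr1 had 38.1, 50.6, 45 and 59.6 FPKM in sham and 169, 269.6, 228 and 155 FPKM in rUUO (log2 change 2.05 ± 0.20, adjusted p = 6.77e-05). Atf3, a stress-induced repressor, went from 2.33 ± 0.501 to 19.7 ± 5.88 FPKM (log2 change 2.60 ± 0.27, adjusted p = 7.93e-05), and Egr2 went from 0.672 ± 0.172 to 8.66 ± 5.14 FPKM (log2 change 2.36 ± 0.42, adjusted p = 0.007). Hspa1a, an inducible HSP70 chaperone, went from 24.6 ± 5.7 to 92.3 ± 25.3 FPKM (log2 change 1.85 ± 0.22, adjusted p = 3.23e-04), though reads of its near-identical copy Hspa1b could be split between them. The other 9 that rose were Ier3, Hspa1b, Zfp36, Nr4a1, Jun, Junb, Dnajb1, Fosl2 and Btg2, with log2 changes from 1.01 to 1.81. Dusp1 had 136 ± 29 FPKM in sham and 235 ± 66 FPKM in rUUO (adjusted p = 0.0808) and Klf6 23 ± 4.7 and 37 ± 5.53 FPKM (adjusted p = 0.13). With single sham or rUUO samples left out the list had 11 to 16 calls, and 13 without sham replicate 3.

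Members of the list rose in the other sorts as well. In PDGFRB+ sorts 16 of the 21 rose (11% of all genes did), in F4/80+ sorts 12 (2.49%) and in LTL+ sorts 16 (6.05%). Every sort went through cell isolation before RNA was taken, and the part of that handling in these rises was not tested. The endothelial change differed from the PDGFRB+ change for none of the 21. It was smaller than the F4/80+ change for Fosl2 (-2.06 ± 0.34, adjusted p = 2.91e-04) and Ier3 (-1.54 ± 0.42, adjusted p = 0.0418). It was smaller than the LTL+ change for Jun (-1.77 ± 0.32, adjusted p = 3.89e-04), Klf6 (-1.55 ± 0.30, adjusted p = 8.65e-04) and Btg2 (-1.54 ± 0.37, adjusted p = 0.0102). The endothelial change in Socs3 did not pass against the other sorts (adjusted p = 0.841, 0.687 and 0.565).

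Promoter sequences of RefSeq on GRCm38.p6, 250 bases before to 50 bases after each start, were matched for 14 of the 15 genes that rose in this list. The windows shown hold elements through which such genes are known to respond. These are the CRE core bound by CREB and ATF factors in Fos, a full CRE in Btg2, and the CArG box of serum response factor in Egr2 and Zfp36. Capitals mark the element, each strand is the gene's own, and the element starts 66 bases before the start of Fos, 166 before Btg2, 72 before Egr2 and 58 before Zfp36. Their positions are chr12:85473784-85473868, plus strand for Fos, chr1:134079274-134079361, minus strand for Btg2, chr10:67537454-67537543, plus strand for Egr2 and chr7:28379237-28379326, minus strand for Zfp36.
Fos: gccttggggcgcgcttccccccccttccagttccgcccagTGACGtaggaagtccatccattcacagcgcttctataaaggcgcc
Btg2: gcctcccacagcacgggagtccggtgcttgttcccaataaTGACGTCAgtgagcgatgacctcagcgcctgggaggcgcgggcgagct
Egr2: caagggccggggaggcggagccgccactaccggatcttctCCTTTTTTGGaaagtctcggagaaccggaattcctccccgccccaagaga
Zfp36: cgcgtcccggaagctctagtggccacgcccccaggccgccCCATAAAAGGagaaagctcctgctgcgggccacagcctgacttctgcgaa
On both strands, the CRE core TGACG, which is contained in the full CRE, stood in 8 of the 14 (57.1%) and in 23% of 27025 genes with a promoter. The full CRE TGACGTCA stood in 1 of 14 (7.14%) and in 2.03% of all. The CArG box stood in 2 of 14 (14.3%) and in 1.81%, the AP-1 motif TGANTCA in 0 of 14 and 8.97%, and the STAT motif TTCNNNGAA in 1 of 14 and 9.55%. A gene counted if any of its listed promoters held the letters, and these shares describe the windows only.

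Genes of VEGF signalling and sprouting showed 3 rises among 24 tested (1.4% of all genes rose), Apln, Aplnr and Nrp2, and no fall, with a median of 0.22. Esm1, a marker of endothelial tip cells, had 237 ± 58.6 FPKM in sham and 405 ± 73 FPKM in rUUO (adjusted p = 0.0743). In fatty acid handling, 5 of 20 tested genes rose (1.4% of all genes did) and none fell, with a median of 0.19, and of 0.10 beside 0.20 for all genes without sham 3. Quantile normalization gave 4 higher and 1 lower. Besides Apln and Aqp7 they were Abca1, Angptl4 and Gpihbp1. Abca1, which exports cholesterol, had 7.48, 10.8, 6.96 and 2.39 FPKM in sham and 28.5, 17.5, 52.7 and 33.4 FPKM in rUUO (log2 change 2.13 ± 0.36, adjusted p = 0.0052). Gpihbp1, which anchors lipoprotein lipase on capillaries, had 117, 94.7, 147 and 150.3 FPKM in sham and 270.1, 244, 257 and 274 FPKM in rUUO (log2 change 1.05 ± 0.18, adjusted p = 0.0053), with UUO samples higher still at 391, 599 and 499 FPKM. Angptl4, an inhibitor of lipoprotein lipase, went from 1.86 ± 1.15 to 7.85 ± 3.14 FPKM (log2 change 1.65 ± 0.37, adjusted p = 0.0308), a call kept without sham 3 or rUUO 6 and lost without any other sample (adjusted p = 0.0506 to 0.111). The fatty acid carriers Fabp4 (416 ± 152 against 388 ± 133 FPKM, adjusted p = 0.919) and Cd36 (98.5 ± 10.5 against 113 ± 45.5 FPKM, adjusted p = 0.9) did not pass.

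Basement membrane genes rose in part. Of 16 tested, 4 rose (1.4% of all genes did), none fell and 8 had rUUO samples wholly above sham samples (7.88% of all genes did), with a median of 0.60. Col4a2, a chain of the main vascular collagen IV, had 55.7, 56.1, 55.9 and 39.2 FPKM in sham and 103, 90.2, 132 and 112 FPKM in rUUO (log2 change 1.07 ± 0.19, adjusted p = 0.007), and its head-to-head neighbour Col4a1 went from 60.2 ± 15.1 to 110.1 ± 14.8 FPKM (log2 change 0.88 ± 0.20, adjusted p = 0.0296). Sparcl1, a matricellular protein, went from 74.1 ± 13.7 to 160.1 ± 15.2 FPKM (log2 change 1.12 ± 0.19, adjusted p = 0.0063), and Fn1, or fibronectin, from 10.8 ± 3.42 to 24.3 ± 3.55 FPKM (log2 change 1.13 ± 0.26, adjusted p = 0.0339). The calls of Col4a1 and Fn1 were lost without any sample but sham 2 (adjusted p = 0.0562 to 0.115 and 0.0716 to 0.125), and the list kept 2 calls without sham 3 and likewise without each other sample but sham 2. Fn1 changed more in PDGFRB+ sorts (difference -2.22 ± 0.62, adjusted p = 0.0228), where it had 509 ± 54.2 FPKM in rUUO. Sparc had 1418 ± 159.8 FPKM in sham and 2117 ± 136 FPKM in rUUO (adjusted p = 0.0506) and Lamb2 148 ± 55.8 and 206 ± 51.3 FPKM (adjusted p = 0.493).

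Of 19 tested genes that mark mesenchymal transition, 2 rose (1.4% of all genes did) and none fell, with a median of 0.54, and quantile normalization gave 1 higher and 1 lower. Cyr61, a matricellular protein induced by YAP signalling, had 6.87, 14.9, 8.74 and 10.1 FPKM in sham and 47.5, 33.9, 56.6 and 41.4 FPKM in rUUO (log2 change 2.06 ± 0.29, adjusted p = 0.0012). Vim, the intermediate filament vimentin, went from 188 ± 18.1 to 326 ± 62.8 FPKM (log2 change 0.77 ± 0.18, adjusted p = 0.0412), a call kept without rUUO 2 and lost without any other sample (adjusted p = 0.0686 to 0.154). Timp3 had 921 ± 251 FPKM in sham and 832 ± 47.9 FPKM in rUUO (adjusted p = 0.826), S100a4 229 ± 65.1 and 118 ± 20.1 FPKM (adjusted p = 0.0589) and Acta2, which also counts among the pericyte markers, 37.3 ± 8.15 and 73.6 ± 13 FPKM (adjusted p = 0.0932). In TGF-beta and BMP signalling, 1 of 25 rose (1.4% of all genes did) with a median of -0.07, whereas quantile normalization gave 1 higher and 3 lower and the fit without sham 3 none. It was Smad1, a transducer of BMP signals (log2 change 1.00 ± 0.20, adjusted p = 0.0174), which lost its call without sham 3, rUUO 2 or rUUO 4 (adjusted p = 0.0599 to 0.064). Eng had 414 ± 69.7 FPKM in sham and 338 ± 31.3 FPKM in rUUO (adjusted p = 0.457), and Id3 208 ± 27 and 161 ± 33.6 FPKM (adjusted p = 0.377). None of 18 Notch genes passed limma's test and 1 had an unadjusted p under 0.05, with Dll4 at 33.9 ± 6.86 FPKM in sham and 38.7 ± 8.38 FPKM in rUUO (adjusted p = 0.762) and Notch1 at 83 ± 28 and 78.9 ± 9.75 FPKM (adjusted p = 0.994).

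Antigen presentation genes had 3 rises among 21 tested (1.4% of all genes rose) and no fall, with a median of 0.58. The rUUO samples were wholly higher in 11 of 21, against 7.88% of all genes. In LTL+ sorts 14 of the 21 rose (6.05% of all genes did), in PDGFRB+ sorts 6 (11%) and in F4/80+ sorts none (2.49%). The only fall was 1 gene in F4/80+ sorts (1.69% of all genes fell there). H2-Q6, a class I molecule of a multigene family whose reads could be split between copies, had 81.4, 74.1, 80.4 and 76.8 FPKM in sham and 150.4, 129.6, 182 and 151 FPKM in rUUO (log2 change 0.95 ± 0.16, adjusted p = 0.0037). Cd74, the invariant chain of class II, went from 91.8 ± 15.3 to 166 ± 8.41 FPKM (log2 change 0.86 ± 0.19, adjusted p = 0.0285). In F4/80+ sorts Cd74 had 22423 ± 1839 FPKM in sham and 14161 ± 1545 FPKM in rUUO. The part of macrophage RNA in the endothelial Cd74 values was not tested. H2-K1, a classical class I molecule, went from 921 ± 93.4 to 1372 ± 72.2 FPKM (log2 change 0.58 ± 0.14, adjusted p = 0.0486). Cd74 lost its call without any sample but sham 1 and sham 4 (adjusted p = 0.067 to 0.091) and H2-K1 without each of the 8 (adjusted p = 0.0604 to 0.153). The list kept 1 or 2 calls without any one sham or rUUO sample, 1 without sham 3, and had 5 without UUO replicate 4. B2m had 3711 ± 577 FPKM in sham and 4698 ± 62.6 FPKM in rUUO (adjusted p = 0.293) and H2-D1 839 ± 77.3 and 1075 ± 66.5 FPKM (adjusted p = 0.245). Of 39 interferon-stimulated genes, 1 rose and 1 fell, against 1.4% and 0.366% of all genes, with a median of 0.37. Without sham 3 the median was 0.21 beside 0.20 for all genes, and none passed. Iigp1, an interferon-inducible GTPase, went from 26.4 ± 6.33 to 55.2 ± 4.89 FPKM (log2 change 1.07 ± 0.24, adjusted p = 0.0326), and Ifi27l2a from 74.6 ± 7.06 to 41 ± 2.54 FPKM (log2 change -0.85 ± 0.20, adjusted p = 0.0478). Both calls were lost without sham 3 (adjusted p = 0.108 for Iigp1 and 0.0732 for Ifi27l2a). Across the samples left out, Iigp1 was lost in 6 of 8 fits, being kept without sham 1 or sham 2, and Ifi27l2a in all 8 (adjusted p = 0.0587 to 0.108 and 0.0732 to 0.142). Ly6e had 2822 ± 288 FPKM in sham and 3076 ± 129 FPKM in rUUO (adjusted p = 0.708) and Sp100 169 ± 21.3 and 189.8 ± 34.3 FPKM (adjusted p = 0.726).

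Coagulation and complement control genes had 2 rises among 20 tested, against 1.4% of all genes. C3, the central complement component, had 5.12, 8.87, 8.54 and 6.62 FPKM in sham and 25.1, 23.7, 30.9 and 38.7 FPKM in rUUO (log2 change 1.89 ± 0.31, adjusted p = 0.0044), and F2r, the thrombin receptor PAR1, went from 177 ± 24.9 to 293 ± 29.3 FPKM (log2 change 0.73 ± 0.15, adjusted p = 0.0217), lost without sham 1 or rUUO 2, 4 or 6 (adjusted p = 0.0613 to 0.0803). Plat had 795 ± 176 FPKM in sham and 762 ± 159 FPKM in rUUO (adjusted p = 0.921) and Anxa5 261 ± 21.4 and 293 ± 29.7 FPKM (adjusted p = 0.672). C3 also went from 256 ± 236 to 695 ± 256 FPKM in PDGFRB+ sorts, from 20.4 ± 10.3 to 62 ± 10.4 FPKM in F4/80+ sorts and from 4.26 ± 1.12 to 83.4 ± 21.4 FPKM in LTL+ sorts. The endothelial change in C3 did not pass against these (adjusted p = 0.994, 0.935 and 0.233, limma). The list median was 0.43. Of 21 genes of p53 and cell cycle arrest, 3 rose (1.4% of all genes did) and none fell, with a median of 0.33. Plk2, a kinase induced by stress, had 53.8, 70.3, 84.3 and 57.1 FPKM in sham and 165, 183, 184 and 178 FPKM in rUUO (log2 change 1.43 ± 0.17, adjusted p = 3.48e-04), Igfbp7, a secreted marker of senescence, went from 242 ± 34.1 to 486 ± 94.7 FPKM (log2 change 0.99 ± 0.18, adjusted p = 0.0082), and Gadd45g rose by 1.03 with a call that was lost without each of the 8 samples in turn (adjusted p = 0.0723 to 0.141). Cdkn1a, the arrest gene p21, had 112 ± 13.4 FPKM in sham and 199 ± 20.7 FPKM in rUUO (adjusted p = 0.103) and Trp53 58.9 ± 9.2 and 82.1 ± 12.6 FPKM (adjusted p = 0.263). None of 23 cell cycle genes passed limma's test, of which 5 had an unadjusted p under 0.05, and the median was 0.42. Pcna was at 62.7 ± 8.34 FPKM in sham and 71.4 ± 4.88 FPKM in rUUO (adjusted p = 0.687) and Mcm3 at 31.1 ± 11.5 and 32.7 ± 3.5 FPKM (adjusted p = 0.861).

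In glycolysis and hypoxia response, 1 of 19 rose (1.4% of all genes did) and the median was -0.01. This was Ddit4, an inhibitor of mTORC1 (log2 change 1.71 ± 0.41, adjusted p = 0.0412), whose call was kept without rUUO 6 and lost without any other sample (adjusted p = 0.0564 to 0.13). The list also had no call after quantile normalization, after rescaling without mitochondrial genes or with a replicate block. Gapdh had 709 ± 87.3 FPKM in sham and 637 ± 62.1 FPKM in rUUO (adjusted p = 0.686) and Aldoa 256 ± 70.1 and 208 ± 24.5 FPKM (adjusted p = 0.521). Among 20 genes of nitric oxide, endothelin and flow response, with a median of 0.06, Ednrb, the endothelin B receptor, rose (log2 change 0.94 ± 0.21, adjusted p = 0.0342), 1 of 20 against 1.4% of all genes. Quantile normalization gave none higher and 2 lower in this list. The Ednrb call was kept without sham 2 and lost without any other sample (adjusted p = 0.0514 to 0.127). Ece1, which cleaves endothelin, had 362 ± 105 FPKM in sham and 345 ± 14.1 FPKM in rUUO (adjusted p = 0.981), and Thbd, or thrombomodulin, 184 ± 44.7 and 256 ± 37.7 FPKM (adjusted p = 0.243).

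**Figure D4:**
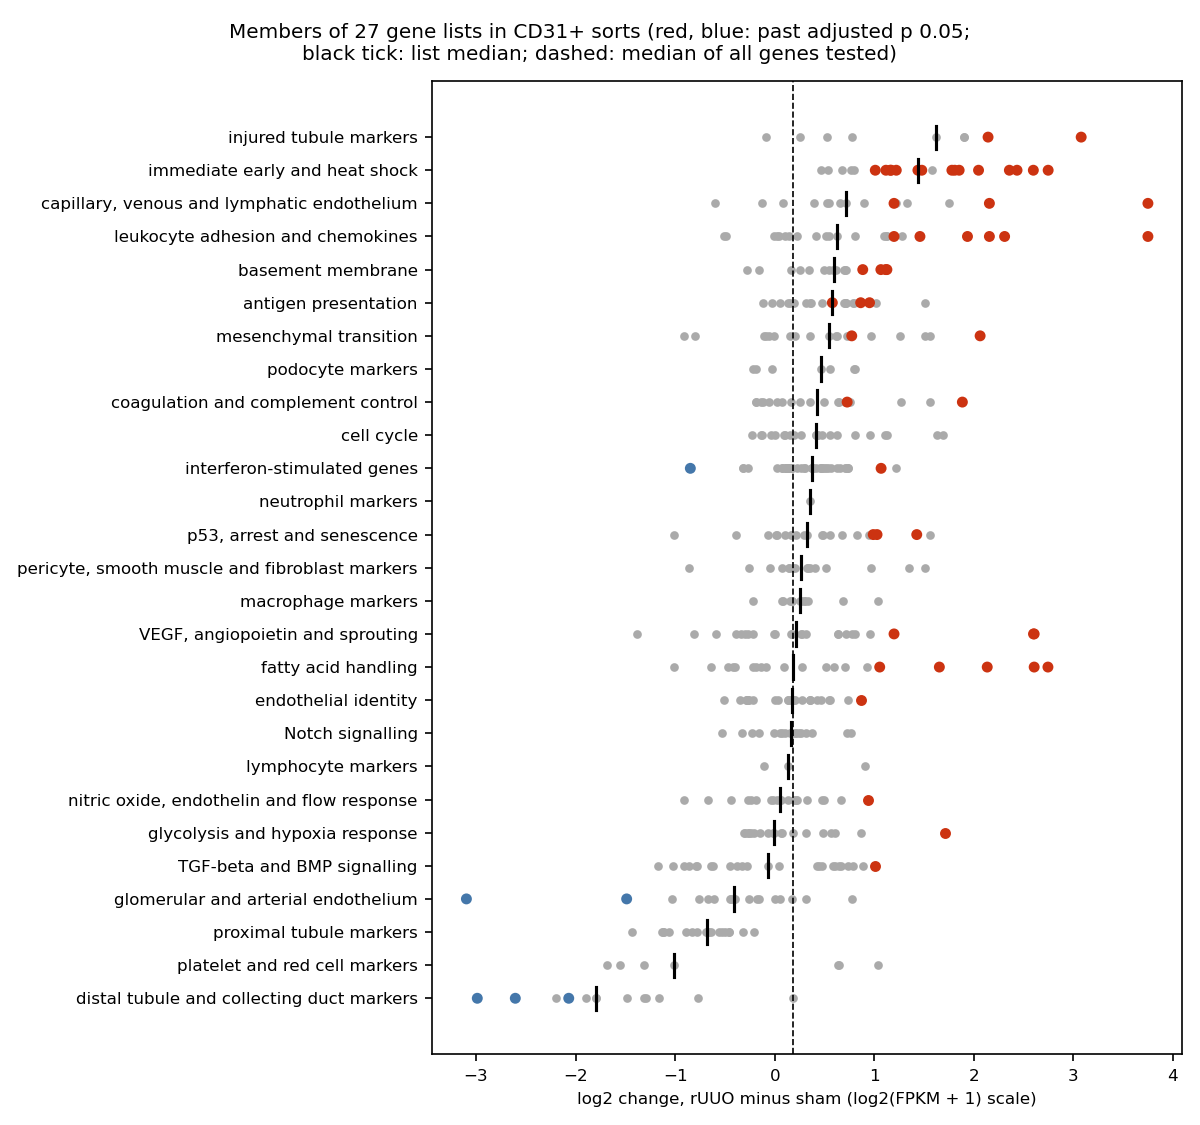
Each row is 1 of 27 gene lists and each point a tested member, with its fitted log2 change from sham to rUUO on the x axis; black ticks are list medians and the dashed line is the median of all genes. Immediate early and heat shock genes have the most red points (15 of 21), and blue points appear in the glomerular and arterial, distal tubule and interferon lists alone.

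Transcripts of the distal nephron were among the largest falls. Of 13 markers of the distal tubule and collecting duct, 3 fell (23.1%, against 0.366% of all genes), none rose and the median was -1.79. Summed over the list, sham replicates 1 to 4 had 241, 341, 1152 and 419.8 FPKM and rUUO replicates 139, 83.9, 201 and 266 FPKM, so that sham replicate 3 was far above the rest. Egf, made by the distal convoluted tubule, had 25.1, 33, 119 and 35.4 FPKM in sham and 3.66, 6.09, 2.73 and 6.94 FPKM in rUUO (log2 change -2.99 ± 0.42, adjusted p = 0.001). Pvalb, or parvalbumin, had 3.44, 3.64, 16.1 and 4.1 FPKM in sham and was listed at 0 in 3 rUUO samples (log2 change -2.61 ± 0.47, adjusted p = 0.0076), and Calb1, the calcium buffer calbindin, went from 17.2 ± 13.9 to 2.87 ± 1.65 FPKM (log2 change -2.07 ± 0.47, adjusted p = 0.0341). Umod, a marker of the thick ascending limb, had 99.3, 161, 558 and 242 FPKM in sham and 84, 45.1, 129.6 and 169.5 FPKM in rUUO (adjusted p = 0.294), and Slc12a3 had 52.3 ± 49.3 and 13.6 ± 10.3 FPKM (adjusted p = 0.136). Without UUO replicate 4, which entered the estimate of the spread, 6 of the 13 passed. Without sham 3, 2 of the 13 passed, and Calb1 missed the threshold (adjusted p = 0.109), as it did without sham 2 or 4 or rUUO 1, 2 or 4.

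Klk1, or tissue kallikrein, whose reads may be shared with other kallikrein genes, had 263, 250.02, 1209 and 338 FPKM in sham and 51.8, 44.5, 67.6 and 91.3 FPKM in rUUO (log2 change -2.70 ± 0.40, adjusted p = 0.0019). S100g, another calcium buffer of the distal nephron, had 121, 257, 1014 and 389 FPKM in sham and 72.9, 24.4, 34.5 and 64.6 FPKM in rUUO (log2 change -2.87 ± 0.56, adjusted p = 0.0133), and Wfdc15b, of the whey acidic protein family, had 24.1, 26.2, 107 and 44.4 FPKM in sham and 3.74, 2.33, 6.36 and 2.81 FPKM in rUUO (log2 change -3.22 ± 0.45, adjusted p = 0.001). In each of these, sham replicate 3 was the highest sample. Sham replicate 3 was also highest for the remaining large falls. These were Fabp3, a fatty acid carrier (log2 change -2.55 ± 0.57, adjusted p = 0.0312), Sostdc1, a Wnt and BMP antagonist of the distal nephron (log2 change -2.24 ± 0.50, adjusted p = 0.0316), Ppp1r1a, a phosphatase inhibitor (log2 change -2.19 ± 0.50, adjusted p = 0.0339), and Tmem207 (log2 change -2.05 ± 0.47, adjusted p = 0.0332). Without sham 3 these 4 were no longer past the threshold (adjusted p = 0.11, 0.11, 0.121 and 0.121), while Klk1, S100g, Egf and Wfdc15b still were. Defb1, a beta-defensin of tubular epithelium, went from 103 ± 78.4 to 25.3 ± 10.1 FPKM (log2 change -1.80 ± 0.43, adjusted p = 0.0412) and was also lost without sham 3 (adjusted p = 0.109). Over all samples left out, the S100g call was lost without sham 4 or rUUO 2 or 4. Calls were lost without sham 1, 3 or 4 or rUUO 1, 2 or 4 for Fabp3, and without sham 3 or 4 or rUUO 1, 2 or 4 for Sostdc1. They were lost without sham 2, 3 or 4 or rUUO 2, 4 or 6 for Ppp1r1a, without sham 3 or 4 or any rUUO sample for Tmem207 and without sham 2, 3 or 4 or rUUO 1, 2 or 4 for Defb1, with adjusted p-values up to 0.136.

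The same transcripts were set against the other sorts. The endothelial change in Klk1, S100g, Egf and Wfdc15b did not differ past the threshold from the PDGFRB+ change (adjusted p = 0.37, 0.215, 0.147 and 0.743), where Klk1 had 547 ± 193 FPKM in sham and 39.5 ± 11.5 FPKM in rUUO. It was below the LTL+ change for all 4, by -2.64 ± 0.63 for Klk1 (adjusted p = 0.0096), -3.91 ± 0.84 for S100g (adjusted p = 0.0035), -2.29 ± 0.61 for Egf (adjusted p = 0.0278) and -4.24 ± 0.76 for Wfdc15b (adjusted p = 3.89e-04), and Wfdc15b also differed from the F4/80+ change (-3.25 ± 0.74, adjusted p = 0.0123). Among the named genes, the difference from LTL+ sorts was largest for Defb1 (-4.82 ± 0.63, adjusted p = 2.32e-06), which had 13.4 ± 1.8 FPKM in LTL+ sham and 116 ± 13.6 FPKM in LTL+ rUUO. All 13 distal markers fell in PDGFRB+ sorts (6.3% of all genes did), 3 fell in F4/80+ sorts (1.69%) and none in LTL+ sorts (0.284%).

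None of 19 proximal tubule markers passed limma's test in endothelial sorts, 7 of them having an unadjusted p under 0.05, with a median of -0.68 and summed levels of 651 to 1091 FPKM in sham and 412 to 659 in rUUO. Its member Cyp4b1 had 351 ± 36.2 FPKM in sham and 284 ± 55.6 FPKM in rUUO (adjusted p = 0.472), beside 327 ± 48.2 FPKM in LTL+ sham sorts, so that its level did not set the 2 sorts apart. Without it, a choice made after its values were seen, the sums were 303 to 727 FPKM in sham and 117 to 377 in rUUO. Kap had 115 ± 71.5 and 51.2 ± 47.8 FPKM (adjusted p = 0.205). Of 9 markers of injured tubules, 2 rose, against 1.4% of all genes, and the median was 1.62. Their summed level was 124 to 239.8 FPKM in sham and 316 to 691 in rUUO, without overlap. Lcn2, or NGAL, had 2.0, 1.26, 14.4 and 2.72 FPKM in sham and 45.6, 16.9, 41 and 55.6 FPKM in rUUO (log2 change 3.08 ± 0.50, adjusted p = 0.0037), with sham replicate 3 the highest of its group. Spp1, or osteopontin, had 34.6, 66.2, 94.8 and 57.3 FPKM in sham and 219.8, 171, 332 and 402 FPKM in rUUO (log2 change 2.14 ± 0.33, adjusted p = 0.0022). In LTL+ sorts Lcn2 had 0.72 ± 0.594 FPKM in sham and 48.4 ± 21.2 FPKM in rUUO, and the changes of neither gene differed between endothelial and LTL+ sorts past the threshold (adjusted p = 0.403 and 0.939). Spp1 was higher in PDGFRB+ sorts, at 162 ± 14.8 FPKM in sham and 1603 ± 333 FPKM in rUUO (difference between the changes -1.13 ± 0.39, adjusted p = 0.0778, limma). Clu had 82 ± 17.1 FPKM in sham and 141 ± 28.7 FPKM in rUUO (adjusted p = 0.126), and Epcam, a general epithelial marker, 9.48 ± 4.38 and 9.09 ± 4.78 FPKM (adjusted p = 0.947). The part of tubular RNA in any of these changes was not tested.

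Further values of the same kind complete the lists. Rgs5, a pericyte gene, had 43 ± 6.2 FPKM in sham and 61.7 ± 8.98 FPKM in rUUO (adjusted p = 0.217). Lyz2 and Fcer1g, macrophage genes, had 42.2 ± 8.6 and 10.8 ± 2.33 FPKM in sham and 53.5 ± 15.9 and 18.4 ± 5.44 FPKM in rUUO (adjusted p = 0.636 and 0.496). Hbb-bs, a globin gene of red cells, was at 50.1 ± 17.5 FPKM in sham and 24.9 ± 12.4 FPKM in rUUO (adjusted p = 0.112) and Hba-a2, which has a near-identical copy, at 15.7 ± 10.9 and 3.89 ± 1.78 FPKM (adjusted p = 0.101). The podocyte genes Synpo and Cdkn1c had 47.4 ± 16.4 and 41.8 ± 9.32 FPKM in sham and 67.3 ± 7.94 and 58.2 ± 12.7 FPKM in rUUO (adjusted p = 0.287 and 0.639). Lck, Ighm and Csf3r, of lymphocytes and neutrophils, stayed below 6 FPKM in every sham and rUUO sample (adjusted p = 0.49, 0.932 and 0.836). Among abundant endothelial genes, Ly6c1 had 1815 ± 48.9 FPKM in sham and 1530.1 ± 195 FPKM in rUUO (adjusted p = 0.478) and Emcn, or endomucin, 1441 ± 92.3 and 1137 ± 134 FPKM (adjusted p = 0.29), each with all rUUO samples below all sham samples.

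**Figure D5:**
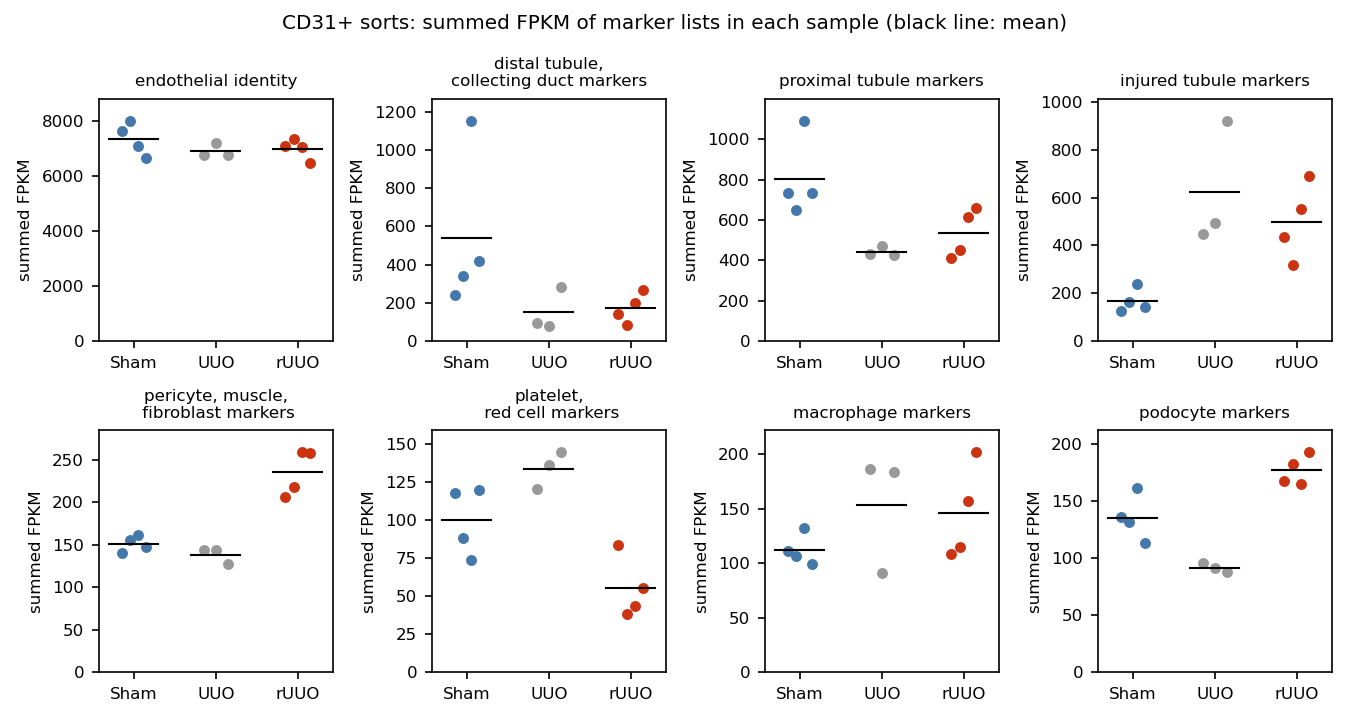
Summed FPKM (y axes) of the endothelial list and 7 lists of other cells in each CD31+ sample of the sham (n = 4), UUO (n = 3) and rUUO (n = 4) groups, with a line at each mean. Distal tubule markers were highest in sham replicate 3, and the pericyte list had every rUUO point above every sham point (141 to 162 against 207 to 259 FPKM).

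Whether reversal moved the endothelium away from the obstructed state was asked by testing rUUO against UUO samples directly. Limma called 8 genes (0.0597% of those tested), 6 of them higher in rUUO, and 1369 genes had an unadjusted p under 0.05. Igfbp3, a binding protein of insulin-like growth factors, had 373, 446 and 552 FPKM in UUO and 172, 139.8, 172 and 123 FPKM in rUUO (log2 change -1.58 ± 0.19, adjusted p = 0.0027), beside 157, 193, 137 and 173 FPKM in sham. The rUUO samples thus overlapped with sham and not with UUO. AA467197 was the other gene that was lower in rUUO, with 62.6, 53.4 and 23.1 FPKM in UUO, 4.69, 5.8, 2.9 and 3.63 FPKM in rUUO and 2.73, 0.43, 0.22 and 0.2 FPKM in sham (adjusted p = 0.0174). Clic3, a chloride intracellular channel family member, had 3.36 ± 0.445 FPKM in UUO (n = 3), 17.7 ± 6.92 FPKM in rUUO and 17.9 ± 5.65 FPKM in sham (adjusted p = 0.0321). Summed podocyte markers were also lowest in UUO, at 87.8 to 95.6 FPKM, beside 165 to 193 in rUUO and 113 to 161 in sham. The part of podocyte RNA in the Clic3 result was not tested. Igfbp2 (log2 change 2.65 ± 0.42, adjusted p = 0.0268) and Dkk3, a secreted Wnt modulator (log2 change 2.26 ± 0.36, adjusted p = 0.0268), were higher in rUUO, Dkk3 having 1.07 ± 0.01 FPKM in UUO, 9.23 ± 2.76 FPKM in rUUO and 1.22 ± 0.526 FPKM in sham. The pseudogenes Gm15501 and Mdk-ps1 were higher in rUUO too. Dkk3 went from 54 ± 12.7 FPKM in PDGFRB+ sham to 219 ± 30.4 FPKM in PDGFRB+ rUUO sorts, and Igfbp2 from 7.44 ± 4.48 to 81.6 ± 15.7 FPKM. The endothelial changes from sham did not differ from these past the threshold (adjusted p = 0.905 and 0.346, limma). Summed pericyte, smooth muscle and fibroblast markers in CD31+ sorts were 127 to 144 FPKM in UUO and 207 to 259 in rUUO. Their part in these results was not tested. The genes named in this comparison other than Igfbp2 and Igfbp3 were chosen after their values were seen. With single samples left out, the count was 3 without rUUO 4, 4 without rUUO 2, 5 without rUUO 6 and 7 to 10 otherwise, and UUO replicate 4 had the lowest mean r of all CD31+ samples (0.852).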

How the data were processed

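RNA of FACS-sorted cells was amplified (Ovation RNA-Seq System V2) and read in pairs on an Illumina HiSeq. The authors deposited 1 table of FPKM values for 53465 genes on GRCm38, rounded to 2 decimals. The submitters' processing notes name FastQC, RSEM, Bowtie2, DESeq2 and mm10, without versions. Of 46 value columns, 2 that share the name of 1 CD31+ UUO sample were left out. The table gives no counts, and relative depths read from low values of short single-exon genes disagreed by up to 0.74 on the log2 scale between pairs of samples, so no depth is given. FPKM are relative, so that a fall of abundant transcripts raises all others. The labels number the samples of a group and do not name mice, and p-values measure the spread between these samples.

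CD31+ groups were compared by limma 3.58.1 in R 4.3.3 (lmFit, eBayes with intensity trend) on log2(FPKM + 1), for the 13393 genes whose average in the 11 CD31+ samples reached 1 FPKM. These samples shared 1 estimate of the spread. P-values were adjusted by Benjamini and Hochberg and called under 0.05. Differences between sorts were contrasts of a fit over all 44 samples. Count models could not be applied to FPKM. Named were the 15 largest rises and 15 largest falls among calls whose groups did not overlap and reached a mean of 5 FPKM, without predicted genes, up to 6 called and 2 uncalled members a list, Pecam1, Kdr and Cdh5, and up to 5 genes per test against another sort. The members and the 27 gene lists were chosen with earlier results of these data known. Means are given ± SD, and log2 changes ± SE. Sequences came from RefSeq promoters on GRCm38.p6. Alternatives were a pseudocount of 0.1, no filter, TPM, quantile normalization, rescaling without mitochondrial genes, other sample sets, no intensity trend, each sample left out, a replicate block and a fold change above 1.5. The fit was tested on simulated data. A called gene of the comparison with UUO is not reported here. Python 3.11.15, numpy 2.4.6, pandas 2.3.3 and matplotlib 3.10.9 were used. The labels name replicate numbers and do not say whether these pair the samples, so the main fit did not use them.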

Additional observations from a re-analysis of the deposited data

Results flagged for a closer look

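Within groups of 4, single samples stood apart in 10 of the 138 groups looked at (69 called genes, each in sham and rUUO), where chance gives about 1 in 20. The gap to the nearest sample, as a share of the group's range of log2(FPKM + 1), was above Dixon's critical value in each. In sham, Apln was highest in replicate 2 (0.893, 12.4 against 8.36 to 8.73 FPKM), Ackr1 was above 0 in replicate 2 alone (gap 1, 0.09 FPKM), H2-K1 was highest in replicate 1 (0.898, 1060.5 against 864 to 882 FPKM), Col4a2 was lowest in replicate 4 (0.982, 39.2 against 55.7 to 56.1 FPKM), Kcnj2 was lowest in replicate 3 (0.887, 0.25 against 1.45 to 1.67 FPKM), and Pvalb was highest in replicate 3 (0.897, 16.1 against 3.44 to 4.1 FPKM). In rUUO, Ddit4 was lowest in replicate 6 (0.905, 5.13 against 10.6 to 11.3 FPKM), Gadd45g was lowest in replicate 2 (0.963, 47.0 against 60.3 to 60.9 FPKM), F2r was lowest in replicate 1 (0.839, 250.2 against 301 to 312 FPKM), and Pvalb was above 0 in replicate 6 alone (gap 1, 0.31 FPKM).

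Tested differences between the change in CD31+ sorts and that in another sort stood out for 10 genes. Against PDGFRB+ sorts the difference in log2 change was 3.65 for Lrg1, 4.13 for Selp, 5.09 for Gm20689, 3.26 for Entpd1 and -2.95 for Pi16. Against F4/80+ sorts it was 4.43 for Lrg1, 4.90 for Selp, 3.34 for Nrcam, 3.50 for Kcnj2 and -3.25 for Wfdc15b. Against LTL+ sorts it was 3.80 for Selp, 3.82 for Gm20689, -4.24 for Wfdc15b, -4.82 for Defb1 and -3.91 for S100g.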

How the results depend on the processing

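Among the 69 named genes past the threshold, 42 stayed past it with each of the 8 samples left out in turn and 23 under all 18 alternatives, and none turned its direction. Against 237 calls (188 higher, 49 lower), there were 489 (383 and 106) with all 4 sorted populations in the fit, 116 (97 and 19) with no filter on low values, which tested 26704 genes, and 128 (112 and 16) without an intensity trend. Quantile normalization gave 84 lower, and leaving out UUO replicate 4, chosen after seeing the data, 75 lower (336 in all, 261 higher). With single sham or rUUO samples left out, calls ranged from 119 to 259, higher ones from 101 to 219 and lower ones from 18 to 40. A replicate block left 68 calls (56 higher, 12 lower). The labels do not say whether the replicate numbers pair the samples. Deviations of same-numbered sham and rUUO samples correlated by 0.003, 0.008 and -0.015 in the 3 shared numbers and 0 of 3 correlated best with its own number. With so few shared numbers, these values cannot settle whether samples were paired. With a pseudocount of 0.1, 442 genes differed from the PDGFRB+ change instead of 785 and 129 from the F4/80+ change instead of 260. Taking sorts of the same surgery and replicate number as a random block gave 838 and 308. Against the LTL+ change that block gave 394 instead of 375. The remaining alternatives (TPM, pseudocount 0.1, sham and rUUO samples alone, rescaling without mitochondrial genes, a fold change above 1.5) gave 198 to 290 calls. In the test of rUUO against UUO, the block and the fit without filter each gave 0 calls instead of 8, and all 4 populations gave 86. The causes of these moves were not tested, other than fewer samples or more genes tested by construction. Without counts, no floor can be set for genes listed at 0.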

Other observations

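Further genes, chosen after their values were seen, passed the same test. Abcc9, the SUR2 subunit that joins Kcnj8 in ATP-sensitive potassium channels, had 0.76, 1.28, 1.62 and 1.53 FPKM in sham and 6.27, 5.94, 5.21 and 5.37 FPKM in rUUO (log2 change 1.56 ± 0.29, adjusted p = 0.0105, limma), and differed from the PDGFRB+ change by 1.24 ± 0.36 (adjusted p = 0.0328). It is known from pericytes too, and had 13.4 ± 1.81 FPKM in PDGFRB+ sham sorts. Insr, the insulin receptor, had 23.4, 35.8, 26.3 and 14.3 FPKM in sham and 95.6, 91.7, 103 and 86 FPKM in rUUO (log2 change 1.94 ± 0.26, adjusted p = 7.57e-04), a change above that in PDGFRB+, F4/80+ and LTL+ sorts (adjusted p = 0.0472, 0.0029 and 0.0054). Lepr, the leptin receptor, went from 8.84 ± 2.49 to 38.1 ± 9.94 FPKM (log2 change 1.99 ± 0.26, adjusted p = 5.74e-04), and Il33, an alarmin of the cell nucleus, from 7.75 ± 1.17 to 26.1 ± 2.86 FPKM (log2 change 1.63 ± 0.26, adjusted p = 0.0033). The secreted acute phase proteins Lbp (log2 change 1.65 ± 0.26, adjusted p = 0.0031) and Cfb (log2 change 1.04 ± 0.19, adjusted p = 0.0092) rose, as did Bcl3, a nuclear partner of NF-kappaB (log2 change 1.80 ± 0.33, adjusted p = 0.0099), Trp53i11 (log2 change 2.20 ± 0.31, adjusted p = 0.001) and Tgm2, a transglutaminase that crosslinks matrix (log2 change 1.39 ± 0.20, adjusted p = 0.0015). All of these stayed past the threshold with each sample left out. Cp, or ceruloplasmin, went from 6.82 ± 1.65 to 35.8 ± 11.5 FPKM (log2 change 2.19 ± 0.42, adjusted p = 0.0121) and missed it without rUUO 4 alone (adjusted p = 0.0543).

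Mitochondrially encoded genes moved the other way. Of 13 protein-coding ones tested, 7 fell (0.366% of all genes did) and none rose, with a median log2 change of -0.93 beside 0.19 for all genes. mt-Nd3 went from 284 ± 85.8 to 72 ± 18.6 FPKM (log2 change -1.95 ± 0.25, adjusted p = 5.45e-04), and mt-Cytb from 4746 ± 1271 to 2532 ± 727 FPKM (log2 change -0.91 ± 0.21, adjusted p = 0.0398). After quantile normalization 5 of these 7 were still past the threshold, and mt-Atp6 (adjusted p = 0.0977) and mt-Nd4l (adjusted p = 0.0636) were not. UUO samples had 107 ± 28.5 FPKM of mt-Nd3 and 2566 ± 423 FPKM of mt-Cytb. In PDGFRB+, F4/80+ and LTL+ sorts the log2 change was -1.47, -1.06 and -0.49 for mt-Nd3 and -1.03, -1.04 and -0.28 for mt-Cytb. The endothelial change differed from none of these past the threshold (adjusted p = 0.665, 0.386 and 0.147, and 0.904, 0.892 and 0.481, limma). The ribosomal RNAs mt-Rnr1 and mt-Rnr2 did not pass in endothelium (adjusted p = 0.583 and 0.733). The share of mitochondrial FPKM overlapped between the groups.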
